A study of Mus musculus with 12 samples.

Results

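Neuroectoderm and neuronal genes were followed for 5 days after loss of Esrrb in mouse embryonic stem cells (ESCs). The set comprised 42 named genes of neural progenitors and neurons, taken from 19938 genes with a probe set that carries a single gene symbol, and all 42 had such a probe set. They did not move as a group. Nes, which encodes the progenitor filament nestin, rose 4.28-fold by day 5, while Neurod1, a transcription factor that drives neuronal differentiation, fell 4.69-fold. Kif1a, a kinesin that carries synaptic vesicle precursors along axons, rose 4.48-fold by day 3, whereas 14 transcription factors of the neural plate and its progenitors included 1 gene that rose by day 5, Irx3, and 1 that fell, Pax6. The median change of the 42 genes at day 5 was 0.01 on the log2 scale, beside -0.02 for all genes.

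The cells were Esrrb_R, a rescue clone derived from rtTA-expressing Ainv15 ESCs, and the labels name 1 such clone. In all of its samples a short hairpin RNA depleted the endogenous Esrrb, and a hairpin-resistant, GFP-tagged Esrrb was expressed as long as doxycycline (Dox) was present. Day 0 cultures had 1 µg/ml Dox, and days 1, 3 and 5 were taken after its removal in medium with serum and Lif, with 3 arrays per day and 12 in all. Although the line was kept on fibroblast feeders, the experiments used gelatin without feeders. Dox removal alone and days of culture alone had no control arrays, so their share in any change cannot be told apart from that of Esrrb. Esrrb checked the labels: its log2 signal averaged 11.59 at day 0, 9.13 at day 1, 8.20 at day 3 and 8.19 at day 5.

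Neuroectoderm is the germ layer that forms brain, spinal cord and neural crest. In ESCs it arises by default when self-renewal signals are withdrawn, through a stage marked by Sox1 and Pax6. Progenitors carry nestin and are kept from differentiating by Notch signaling, in which Dll ligands on one cell activate Hes genes in its neighbour. Proneural bHLH factors then start neurogenesis, and neurofilaments, tubulin and axonal proteins accumulate in the neurons. Several of these genes, among them Nes, Sox4, Sox9, Ncam1 and Crabp2, are also used in other tissues, so the signal of 1 of them does not name a cell type. In bulk cultures such as these, fewer cells of a type and less RNA per cell cannot be told apart.

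The upstream 250 bases of 4 genes are shown because these are the genes with a RefSeq promoter that rose most (Nes, Kif1a) and fell most (Neurod1, Ina) by day 5, and because proneural factors, Esrrb and the basal machinery have known recognition letters that can be looked for there. They are RefSeq sequences of build GRCm38.p6, written 5′ to 3′ toward the transcription start, and capitals mark motifs that were found. Nes lies on the forward strand at chr3:87970843-87971092, the first of 2 Kif1a starts on the reverse strand at chr1:93101875-93102124, Neurod1 on the reverse strand at chr2:79456637-79456886 and Ina on the forward strand at chr19:47014431-47014680.
Nes: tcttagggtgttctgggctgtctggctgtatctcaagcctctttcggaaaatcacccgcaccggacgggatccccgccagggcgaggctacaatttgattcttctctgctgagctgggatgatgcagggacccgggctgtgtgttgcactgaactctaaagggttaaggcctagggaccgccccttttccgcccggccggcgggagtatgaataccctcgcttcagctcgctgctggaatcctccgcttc
Kif1a: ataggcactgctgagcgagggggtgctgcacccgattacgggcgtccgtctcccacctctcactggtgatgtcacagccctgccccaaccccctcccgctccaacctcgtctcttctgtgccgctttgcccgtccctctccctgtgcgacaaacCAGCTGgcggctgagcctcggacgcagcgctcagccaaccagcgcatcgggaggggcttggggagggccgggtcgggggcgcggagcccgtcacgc
Neurod1: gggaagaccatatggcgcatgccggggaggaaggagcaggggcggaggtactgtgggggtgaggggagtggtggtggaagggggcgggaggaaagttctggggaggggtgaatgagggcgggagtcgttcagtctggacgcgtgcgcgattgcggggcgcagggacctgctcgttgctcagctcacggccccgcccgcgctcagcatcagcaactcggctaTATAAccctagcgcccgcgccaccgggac
Ina: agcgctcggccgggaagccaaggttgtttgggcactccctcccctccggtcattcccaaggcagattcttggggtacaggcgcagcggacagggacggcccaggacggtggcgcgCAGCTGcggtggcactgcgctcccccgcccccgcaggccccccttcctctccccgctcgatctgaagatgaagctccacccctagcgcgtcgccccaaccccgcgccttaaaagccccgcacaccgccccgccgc

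In these stretches the capitals mark the E-box CAGCTG, a form bound by bHLH dimers, 96 bases before the start of Kif1a and 135 bases before that of Ina, and the TATA letters TATAA 29 bases before the start of Neurod1. Nes held none of the 7 motifs searched. The RefSeq table had 40 promoters of 30 of the 42 genes. The Esrrb element TCAAGGTCA, searched on both strands, was in 0 of the 40, beside 0.387% of all 32851 promoters. Its core AAGGTCA, contained in the longer form, was also in 0 of 40, beside 4.08% of all. CAGCTG was found in 9 promoters of 8 genes, namely Dll1, Dll3, Elavl3, Elavl4, Ina, Kif1a, Sox11 and Sox4, beside 13% of all promoters. These genes included some that rose, some that fell and 1 at background. The other E-box, CAGATG, was in 5 promoters of Elavl4, Fabp7 and Nkx2-2, beside 14.4% of all. TATAA, searched on the strand of the gene, was in 8 promoters of 7 genes, beside 16% of all, and it stood 29 bases before the start of Neurod1, 27 before Neurog2 and Dll3, 30 before Tubb3, 33 before Elavl3, 8 before Olig2, and 98 and 193 before starts of Dcx. The Rbpj motif GTGGGAA was in the Hes5 promoter, on either strand, and in 5.42% of all. The Sox motif ACAATGG was in those of Hes5, Myt1 and Neurog1, and in 3.02% of all. Such matches describe the letters of a short window and say nothing of binding.

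Signals are deposited log2 values, and changes are differences of log2 means with a standard error (SE) from 1 limma model of all 12 arrays. A gene was called where its p-value, adjusted by Benjamini-Hochberg over all 19938 genes, was under 0.05. At day 1 against day 0, 7 of the 42 genes were called higher and 2 lower, or 16.7% and 4.76%, beside 6.45% and 4.48% of all genes. At day 3 the counts were 12 higher and 11 lower, or 28.6% and 26.2%, beside 13.5% and 13.1% of all genes. Day 5 had 8 higher and 9 lower, or 19% and 21.4%, which is near the 17.4% and 17.6% of all genes. Between days 1 and 3, 9 rose and 8 fell, beside 9.20% and 11.6% of all genes called. Between days 3 and 5, 5 rose and 10 fell, beside 13.0% and 12.2%. By the moderated F test over the days, 23 of 42 genes were called, beside 45.6% of all genes. The comparisons against day 0 share its 3 arrays. The share called was above that of all genes at day 3, on either side, and close to it at day 5. The 42 genes were chosen with earlier results of these data known, so these shares are a description. The sets are also unlike: 24.5% of all genes, but 4 of the 42, were at background on every array. One of the 4, Fabp7, is among the 12 called higher at day 3. The contrast depends on the background level, which is described further on. With the 99th percentile in place of the 95th, 38.4% of all genes and 14 of the 42 were at background.

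**Figure D1:**
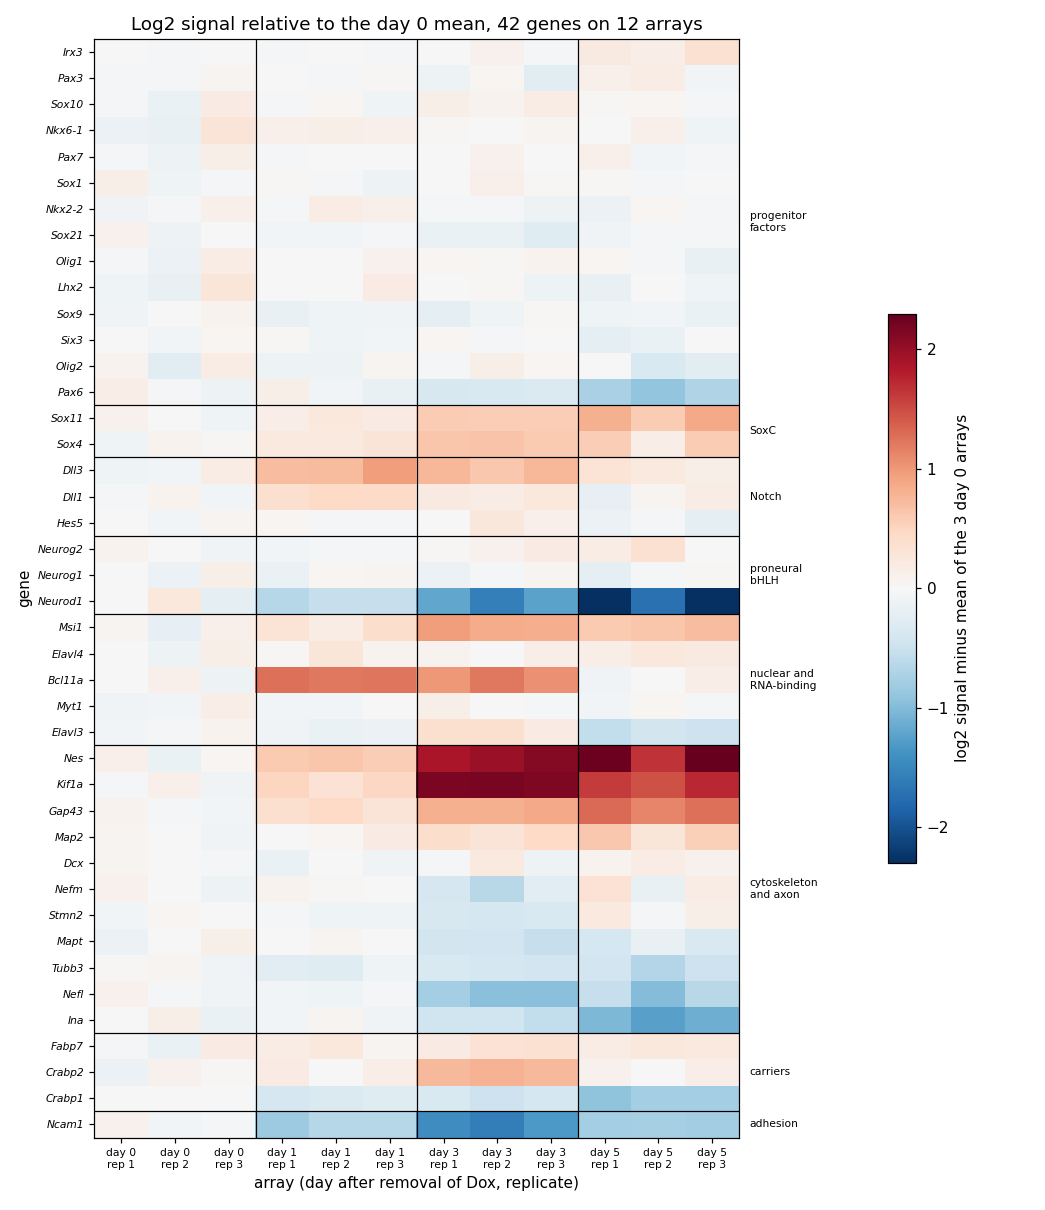
Log2 signal of the 42 genes (rows, grouped by role and ordered by the day 5 change) on each of the 12 arrays (columns), minus the mean of the 3 day 0 arrays. Red is above and blue below day 0. The largest shifts are those of Nes and Kif1a upward and of Neurod1 downward, most neural plate factors stay pale, Bcl11a is red at days 1 and 3 and pale at day 5, and Ncam1 is darkest at day 3.

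The neural plate and progenitor transcription factors act first and were seldom called. Pax6, Six3, Olig2 and Pax3 had arrays on either side of the background level described further on. Near that level a fall of the transcript may not be seen, so few calls do not show steady transcripts. None of the 14 was called at day 1, beside 6.45% of all genes called higher and 4.48% lower. Their day 1 changes ran from -0.11 to 0.13. At day 3 none was called higher and 2 lower (14.3%, beside 13.1% of all genes), and at day 5 1 in either direction (7.14% each, beside 17.4% and 17.6%). Sox1, the earliest marker of committed neuroectoderm, stood between 7.73 and 7.97 on all 12 arrays and had a day 5 change of 0.00 with an SE of 0.07 (adjusted p = 1). Its 4 groups of arrays overlapped. Pax6, which specifies eye, forebrain and radial glia, moved down. Its mean was 6.87 ± 0.14 (SD, n = 3) on the day 0 arrays, 6.84 ± 0.15 a day later, 6.52 ± 0.02 at day 3 and 6.09 ± 0.11 by day 5, which made a day 5 change of -0.78 with an SE of 0.09 (adjusted p = 1.4e-05). All 3 day 5 arrays of Pax6 were under the background level, and the day 0 mean lay 0.63 above that level. With this level the fall of the means is at least 1.54-fold. The bound depends on the percentile that sets the level: the 99th, 6.93, lies above the day 0 mean and gives no bound. The day 3 call of Pax6 (-0.35, adjusted p = 0.01) was lost without day 0 replicate 1 (adjusted p = 0.051). Its call between days 1 and 3 was lost without any 1 of 5 of the 6 arrays compared, with adjusted p-values from 0.052 to 0.1. Irx3, a factor of posterior and intermediate neural tube, rose by 0.23 at day 5 (SE 0.06, adjusted p = 0.0098), with its 3 day 5 arrays at 6.76, 6.71 and 6.91 above all others. Its rise from day 3 to day 5 (0.21, adjusted p = 0.021) did not pass when day 3 replicate 1 (adjusted p = 0.063), day 3 replicate 3 (0.088) or day 5 replicate 3 (0.096) was left out. Sox21, a repressor that promotes neurogenesis, had a single call, of -0.20 at day 3 (SE 0.06, adjusted p = 0.035). It was lost under 5 of the 12 fits that left out 1 array, with adjusted p-values between 0.051 and 0.14, and with the replicate number as a block (0.057).

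The other 11 of these factors were called in no comparison. They are Six3 and Lhx2 of the forebrain and eye field, Nkx2-2, Nkx6-1, Olig1 and Olig2 of the ventral neural tube, Pax3 and Pax7 of the dorsal tube and crest, and Sox9 and Sox10 of glia and crest, beside Sox1. With Neurog1, Neurog2, Myt1, Elavl4 and Dcx they made 16 genes with no call in any of the 6 tests. Signals of the 16 lay between 5.16 and 7.97, and their day 5 changes ran from -0.20 to 0.20, with 95% confidence limits reaching from -0.44 to 0.37. For Myt1, Elavl4 and Dcx, at background on every array, these limits hold for the measured signal and bound no change of the transcript. For Six3, Olig2, Pax3 and Neurog1, with arrays on either side of the level, a fall of the transcript may be understated. Some of the 16 passed the threshold without a single array. These were Six3 at day 5 without day 5 replicate 3 (-0.19, adjusted p = 0.038), Olig2 at day 5 without day 0 replicate 2 (-0.32, 0.026), Nkx6-1 at day 1 without day 0 replicate 3 (0.27, 0.024) and Sox10 at day 3 without the same array (0.22, 0.026). So did Neurog2 at day 5 without day 5 replicate 3 (0.26, 0.023), Elavl4 at day 5 without day 0 replicate 3 (0.27, 0.025) or day 1 replicate 2 (0.20, 0.046), and Pax3 between days 3 and 5 without day 3 replicate 2 or day 5 replicate 3 (0.26 in either fit, 0.041 and 0.045). Quantile normalization or median centring also brought Pax3, Neurog2 and Elavl4 past the threshold in these comparisons, with adjusted p-values between 0.011 and 0.046, and quantile normalization brought Nkx2-2 past it between days 1 and 3 (-0.21, 0.044). Day 0 replicate 3 read highest of its day for all of the 16 genes except Sox1, Neurog2 and Dcx. In the alternative fit with array weights this array had the lowest weight, 0.542, and day 5 replicate 2 the next lowest, 0.576.

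Sox4 and Sox11 belong to the SoxC factors, which act after the progenitor stage and open neuronal genes, and they rose together. Sox11 had a mean of 9.00 ± 0.10 (SD, n = 3) with Dox, then 9.19 ± 0.04 at day 1, 9.57 ± 0.01 at day 3 and 9.76 ± 0.16 by day 5. Its changes were 0.57 at day 3 (SE 0.08, adjusted p = 0.0001) and 0.76 at day 5 (SE 0.08, adjusted p = 5.1e-06). Sox4 rose by 0.63 at day 3 (SE 0.10, adjusted p = 0.00032) and 0.43 at day 5 (SE 0.10, adjusted p = 0.0035). For each of these genes every array of days 3 and 5 was above every day 0 array. On day 5 replicate 2 either gene read lower than on the other 2 day 5 arrays, 9.57 for Sox11 beside 9.82 and 9.87, and 8.88 for Sox4 beside 9.28 and 9.31. Without that array Sox11 also rose between days 3 and 5 (0.28, adjusted p = 0.0089), and Sox4 was already called at day 1 (0.24, adjusted p = 0.02).

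The Notch ligands Dll1 and Dll3 were higher at day 1 and lower again by day 5. Dll3, a divergent ligand that acts on Notch within the cell, read 6.96, 6.99 and 7.23 at day 0, 7.77, 7.79 and 8.01 at day 1, 7.82, 7.68 and 7.82 at day 3, and 7.38, 7.28 and 7.20 at day 5. Days 1 and 3 stood above day 0 without overlap, and day 5 overlapped day 0. The changes of Dll3 were 0.80 at day 1 (SE 0.09, adjusted p = 8e-05), 0.71 at day 3 (adjusted p = 4.9e-05) and 0.23 at day 5 (adjusted p = 0.064), and the fall from day 3 to day 5 was -0.49 (adjusted p = 0.0012). The day 5 change of Dll3 passed the threshold when day 0 replicate 3 (0.31, adjusted p = 0.014) or day 1 replicate 3 (0.047) was left out, and with quantile normalization (0.26, 0.044) or median centring (0.27, 0.035). Dll1, the ligand that presents to neighbouring cells, rose by 0.42 at day 1 (SE 0.08, adjusted p = 0.0046) and was at 0.02 by day 5 (adjusted p = 0.91). Its day 3 change of 0.20 (adjusted p = 0.077) was called once day 5 replicate 1 (0.019) or day 5 replicate 3 (0.049) was left out. Hes5, the main Notch target in neural progenitors, was called in 1 comparison, with a fall of -0.26 from day 3 to day 5 (SE 0.07, adjusted p = 0.019). Leaving out day 3 replicate 2 (adjusted p = 0.093) or day 5 replicate 3 (0.089) ended that call, as did centring each array on its median (0.091).

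Proneural factors differed among themselves. Neurod1 read 8.88, 9.12 and 8.66 at day 0, 8.24, 8.36 and 8.35 at day 1, 7.69, 7.31 and 7.65 at day 3, and 6.33, 7.16 and 6.48 at day 5. No 2 days overlapped, and each later day was lower than the one before. The change was -0.57 at day 1 (SE 0.18, adjusted p = 0.067), which did not pass the threshold, -1.34 at day 3 (adjusted p = 0.00012) and -2.23 at day 5 (adjusted p = 7.5e-07). Between days 1 and 3 the gene fell by 0.77 (adjusted p = 0.0096), and between days 3 and 5 by 0.89 (adjusted p = 0.0029). Without day 5 replicate 2, which read highest of its day, the day 1 fall passed the threshold (adjusted p = 0.0096), as it did without day 5 replicate 1 (0.048). Neurog1 and Neurog2, which act before Neurod1 in many neuronal lineages, had day 5 changes of -0.06 and 0.17 (adjusted p = 0.65 and 0.15). Neurod1 is also an islet and gut endocrine factor. Of 10 markers of those cells 8 were measured, and Ins2, Gcg and Chgb were at background on every array. None of the 8 was called higher at any day against day 0, beside 6.45%, 13.5% and 17.4% of all genes. Neurog3 and Chga were called lower at day 5 (25%, beside 17.6% of all genes).

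**Figure D2:**
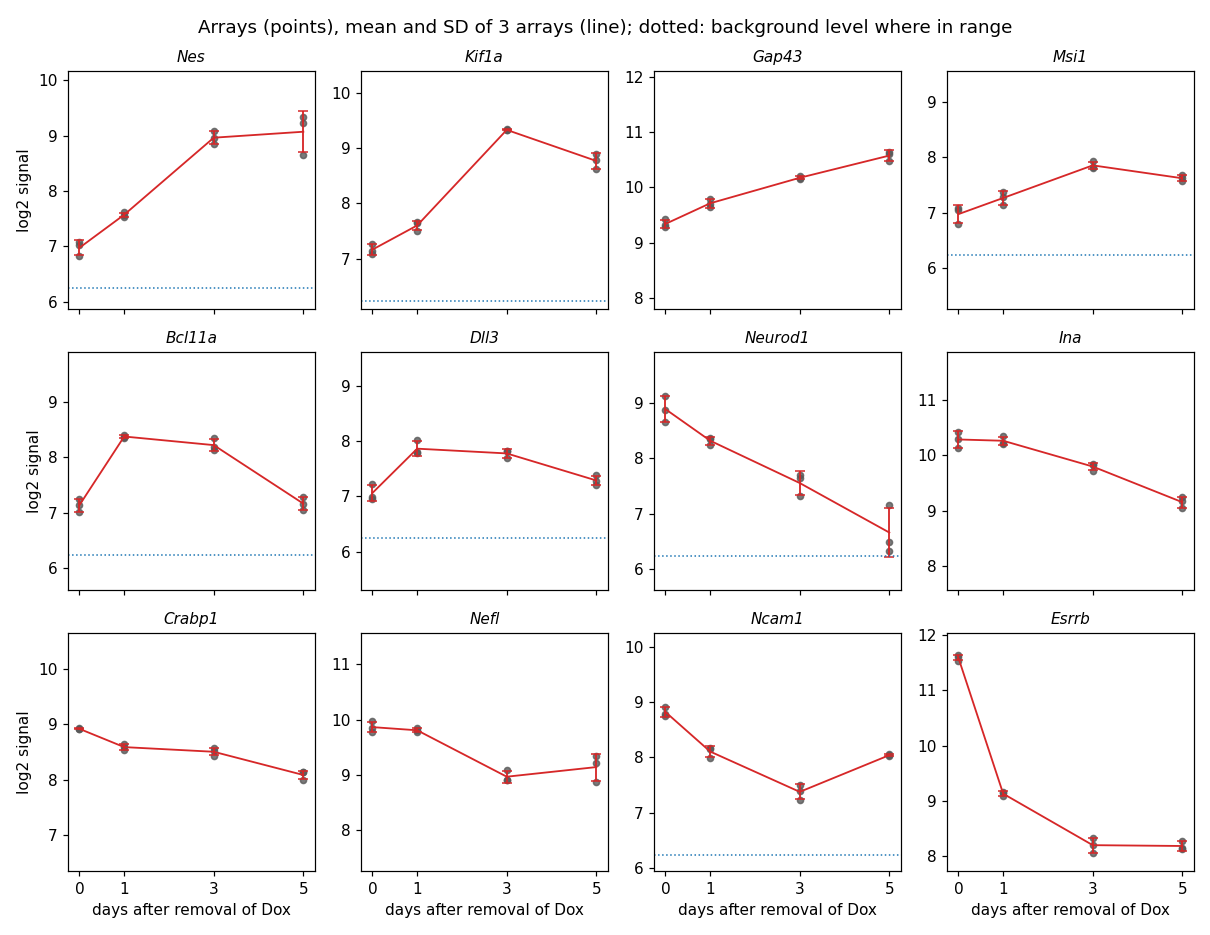
Log2 signal against days after removal of Dox for the 11 genes with a called change of at least 0.8 against day 0, with Esrrb for comparison. Points are arrays, lines join the means of 3 arrays with their SD, the vertical span in log2 units is equal in all panels, and the dotted line is the background level. Neurod1 falls at each day toward that level. Nes and Kif1a stand above their day 0 arrays from day 1 and rise most between days 1 and 3.

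Among the other nuclear and RNA-binding regulators, Bcl11a rose and returned. This zinc finger repressor, which acts in cortical neurons and lymphoid progenitors, read 7.13, 7.25 and 7.02 at day 0, 8.41, 8.35 and 8.36 at day 1, 8.13, 8.35 and 8.18 at day 3, and 7.05, 7.15 and 7.28 at day 5. Days 1 and 3 lay more than 0.8 above every day 0 and day 5 array, and the day 3 arrays were no higher than those of day 1. Bcl11a rose by 1.24 at day 1 (SE 0.08, adjusted p = 1e-06), the largest day 1 change of the 42 genes, was up by 1.08 at day 3 (adjusted p = 5.4e-07), and fell by 1.06 from day 3 to day 5 (adjusted p = 1.3e-06). Msi1, an RNA-binding protein that keeps neural progenitors dividing, rose and stayed up. It read 7.04, 6.79 and 7.08 at day 0, 7.28, 7.14 and 7.38 at day 1, 7.93, 7.82 and 7.81 at day 3, and 7.57, 7.62 and 7.68 at day 5, with every later array above every day 0 array. Its changes were 0.88 at day 3 (SE 0.08, adjusted p = 5.1e-06) and 0.65 at day 5 (adjusted p = 4.1e-05). The day 1 call of Msi1 (0.29, adjusted p = 0.04) was lost under 7 of the 12 fits that left out 1 array, with adjusted p-values between 0.05 and 0.16. Elavl3, a neuronal RNA-binding protein, changed direction, with 0.31 at day 3 (SE 0.07, adjusted p = 0.0034) and -0.48 at day 5 (adjusted p = 6.9e-05). Its relative Elavl4 and the zinc finger factor Myt1 were at background.

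Genes of filaments, microtubules and axons divided in direction, with 4 of 11 higher and 6 lower at day 3 and 4 higher and 4 lower at day 5. These are 36.4% and 54.5% at day 3, beside 13.5% and 13.1% of all genes, and 36.4% each at day 5, beside 17.4% and 17.6%. Nes read 7.08, 6.82 and 7.02 at day 0, 7.57, 7.61 and 7.53 at day 1, 8.85, 8.96 and 9.08 at day 3, and 9.23, 8.64 and 9.33 at day 5. Days 0, 1 and 3 did not overlap, and day 5 spanned the day 3 values. The changes of Nes were 0.60 at day 1 (SE 0.14, adjusted p = 0.017), 1.99 at day 3 (adjusted p = 4.4e-07) and 2.10 at day 5 (adjusted p = 1.4e-07). The day 1 call was lost without day 0 replicate 2 (0.52, adjusted p = 0.068), day 1 replicate 1 (0.051) or day 1 replicate 2 (0.058). From day 3 to day 5 Nes changed by 0.11 (adjusted p = 0.65), and by 0.32 without day 5 replicate 2 (adjusted p = 0.02). The direction of Nes and Neurod1 was known when they were chosen and is given as a description.

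Kif1a read 7.13, 7.27 and 7.08 at day 0, 7.66, 7.50 and 7.64 at day 1, 9.32, 9.34 and 9.32 at day 3, and 8.78, 8.62 and 8.89 at day 5. It peaked at day 3, with an SD of 0.01 over the 3 arrays, and no 2 days overlapped. Kif1a rose by 0.44 at day 1 (SE 0.08, adjusted p = 0.0027), 2.16 at day 3 (adjusted p = 1.5e-09) and 1.60 at day 5 (adjusted p = 7.6e-09), and the fall after day 3 was -0.56 (adjusted p = 0.00015). Gap43, a growth cone protein, read 9.42, 9.32 and 9.28 at day 0, 9.70, 9.80 and 9.64 at day 1, 10.16, 10.15 and 10.21 at day 3, and 10.65, 10.47 and 10.61 at day 5. Every day stood above the one before without overlap. Its day 5 change was 1.24 (SE 0.07, adjusted p = 1.8e-08), and the steps from day 1 to day 3 (0.46) and from day 3 to day 5 (0.40) were also called, with adjusted p-values of 0.00032 and 0.00058. Map2, a dendritic microtubule protein, rose by 0.39 at day 3 (SE 0.09, adjusted p = 0.0052) and 0.48 at day 5 (adjusted p = 0.00084). Its call between days 1 and 3 (0.31, adjusted p = 0.023) was lost without any 1 of 4 arrays, with adjusted p-values between 0.065 and 0.092, and with quantile normalization (0.25, 0.1) or median centring (0.25, 0.088).

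Of the neuronal intermediate filaments, Ina and Nefl fell at days 3 and 5. Ina, or alpha-internexin, read 10.30, 10.43 and 10.13 at day 0, 10.23, 10.35 and 10.21 at day 1, 9.84, 9.83 and 9.72 at day 3, and 9.25, 9.04 and 9.17 at day 5. Days 0 and 1 overlapped, and days 3 and 5 lay below them in turn. Ina changed by -0.49 at day 3 (SE 0.08, adjusted p = 0.00055) and by -1.13 at day 5 (adjusted p = 2.2e-07), and its 2 probe sets gave -1.06 and -1.20 at day 5. Nefl, the light neurofilament chain, read 9.97, 9.84 and 9.78 at day 0, 9.81, 9.77 and 9.84 at day 1, 9.09, 8.91 and 8.91 at day 3, and 9.33, 8.87 and 9.22 at day 5. All day 3 and day 5 arrays were below those of days 0 and 1. Nefl changed by -0.90 at day 3 (SE 0.10, adjusted p = 2.8e-05) and -0.72 at day 5 (adjusted p = 9.8e-05), and its change from day 3 to day 5 was 0.17 (adjusted p = 0.26). Without day 5 replicate 2 that change was 0.31 and was called (adjusted p = 0.012).

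Nefm, the medium chain, dipped by -0.42 at day 3 (SE 0.12, adjusted p = 0.018) and regained 0.54 by day 5 (adjusted p = 0.0048). The day 3 call of Nefm did not survive leaving out day 0 replicate 1 (adjusted p = 0.072) or day 3 replicate 2 (0.085). For the fall from day 1 to day 3 (-0.46, adjusted p = 0.016), the same held for day 1 replicate 1 (0.054) and day 3 replicate 2 (0.072). Stmn2, a regulator of microtubule turnover in axons, dipped and recovered likewise, by -0.37 at day 3 (SE 0.07, adjusted p = 0.001) and 0.48 between days 3 and 5 (adjusted p = 0.00019). Without day 5 replicate 2 it stood above day 0 by 0.18 (adjusted p = 0.036). Tubb3, the neuronal beta tubulin, fell by 0.40 at day 3 (SE 0.08, adjusted p = 0.0014) and 0.53 at day 5 (adjusted p = 9.4e-05). Mapt, the axonal protein tau, fell by 0.46 at day 3 (SE 0.08, adjusted p = 0.00052) and 0.31 at day 5 (adjusted p = 0.0059). Dcx, which marks migrating young neurons, was at background.

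Carriers of lipid and retinoid ligands moved in different ways. Crabp1, which binds retinoic acid in the cytoplasm, read 8.93, 8.91 and 8.92 at day 0, 8.54, 8.59 and 8.64 at day 1, 8.57, 8.43 and 8.51 at day 3, and 7.99, 8.13 and 8.13 at day 5. All later arrays lay below day 0, days 1 and 3 overlapped, and day 5 was lowest. Its changes were -0.33 at day 1 (SE 0.06, adjusted p = 0.0031), -0.41 at day 3 (adjusted p = 0.00016) and -0.83 at day 5 (adjusted p = 1.9e-07). Crabp2, which delivers retinoic acid to its nuclear receptor, was up at day 3 alone among the comparisons with day 0, by 0.76 (SE 0.07, adjusted p = 4.3e-06), and fell by 0.67 from there to day 5 (adjusted p = 1.7e-05). Fabp7, the lipid carrier of radial glia, was called at day 3 (0.29, SE 0.08, adjusted p = 0.019) although all of its arrays were at or under the background level. That call was lost without day 0 replicate 1 or 2 or day 3 replicate 2 or 3, with adjusted p-values between 0.063 and 0.083. Its day 5 change of 0.21 (adjusted p = 0.067) was called without day 0 replicate 3 (0.30, 0.0081) and with quantile normalization (0.011) or median centring (0.019).

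Ncam1, the neural cell adhesion molecule, read 8.92, 8.76 and 8.79 at day 0, 8.00, 8.16 and 8.17 at day 1, 7.39, 7.24 and 7.51 at day 3, and 8.05, 8.06 and 8.02 at day 5. It was lowest at day 3, and days 1 and 5 overlapped. Ncam1 changed by -0.72 at day 1 (SE 0.08, adjusted p = 5.9e-05), -1.44 at day 3 (adjusted p = 3.7e-08) and -0.78 at day 5 (adjusted p = 3.3e-06), and rose by 0.66 from day 3 to day 5 (adjusted p = 3.6e-05). Markers of fibroblasts, the feeder cells of routine culture, also had their lowest signal at day 3. Of 12 such markers, 7 were lower at day 3 and 1 higher (58.3% and 8.33%, beside 13.1% and 13.5% of all genes). Between days 3 and 5, 5 rose (41.7%, beside 13.0%), and 2 were lower at day 5 (16.7%, beside 17.6%). The mean log2 signal of the 12 was 7.01 to 7.12 on the day 0 arrays, 7.01 to 7.05 at day 1, 6.71 to 6.75 at day 3 and 6.93 to 7.02 at day 5. Lum and Fap were at background on every array. The part of fibroblast RNA in the day 3 dips of Ncam1, Nefm and Stmn2 was not tested.

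**Figure D3:**
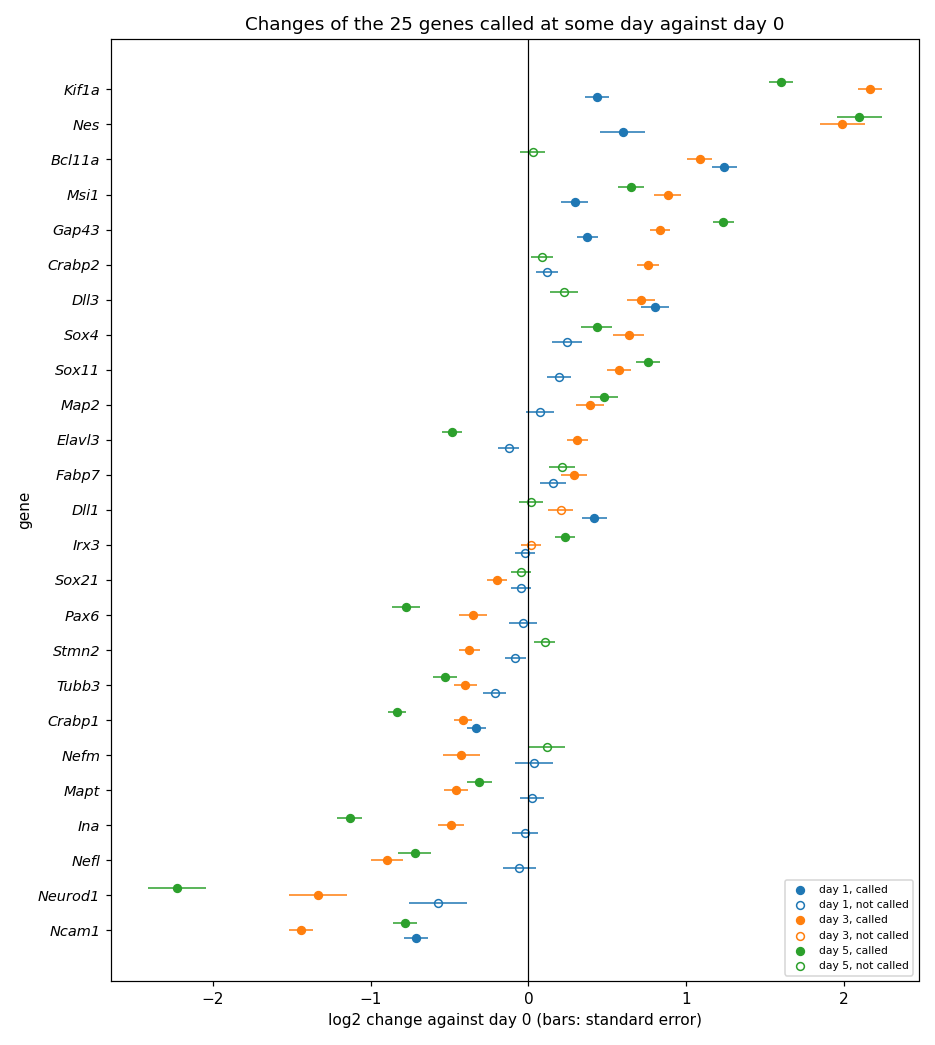
Log2 change against day 0 at days 1, 3 and 5 for the 25 genes called at some day, ordered by the day 3 change. Filled points passed the threshold, open points did not, and bars are standard errors from the fit. Kif1a and Nes lie farthest right and Neurod1 farthest left, and Bcl11a and Crabp2 return to an open point near 0 at day 5, where Dll3 has an open point at 0.23.

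The deposited values hold no detection call, so a background level was set from 1190 odorant and vomeronasal receptor genes, which ESCs are not known to use. Their median log2 signal was 4.61, and the 95th percentile, 6.24, was taken as the level. Fabp7, Dcx, Myt1 and Elavl4 were at or under it on all 12 arrays, and Pax6, Six3, Olig2, Pax3 and Neurog1 had arrays on either side. The other 33 genes were above it throughout. At or under the level on every array were 24.5% of all genes. The number depends on the percentile, a check chosen after the data were seen. With the 90th percentile (5.90) 2 of the 42 genes, Dcx and Fabp7, were at background, beside 18.6% of all genes. With the 99th (6.93) 14 of the 42 were, beside 38.4% of all genes. That level added Six3, Irx3, Nkx2-2, Olig1, Olig2, Pax3, Pax7, Sox9, Neurog1 and Neurog2 to Fabp7, Dcx, Myt1 and Elavl4. Neurod1 ended at 6.66 ± 0.44 (SD, n = 3), just above the level. Its day 5 arrays were at 6.33 and 6.48, and 7.16 on replicate 2. A probe set's brightness depends on its sequence, so levels of different genes were not ranked.

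**Figure D4:**
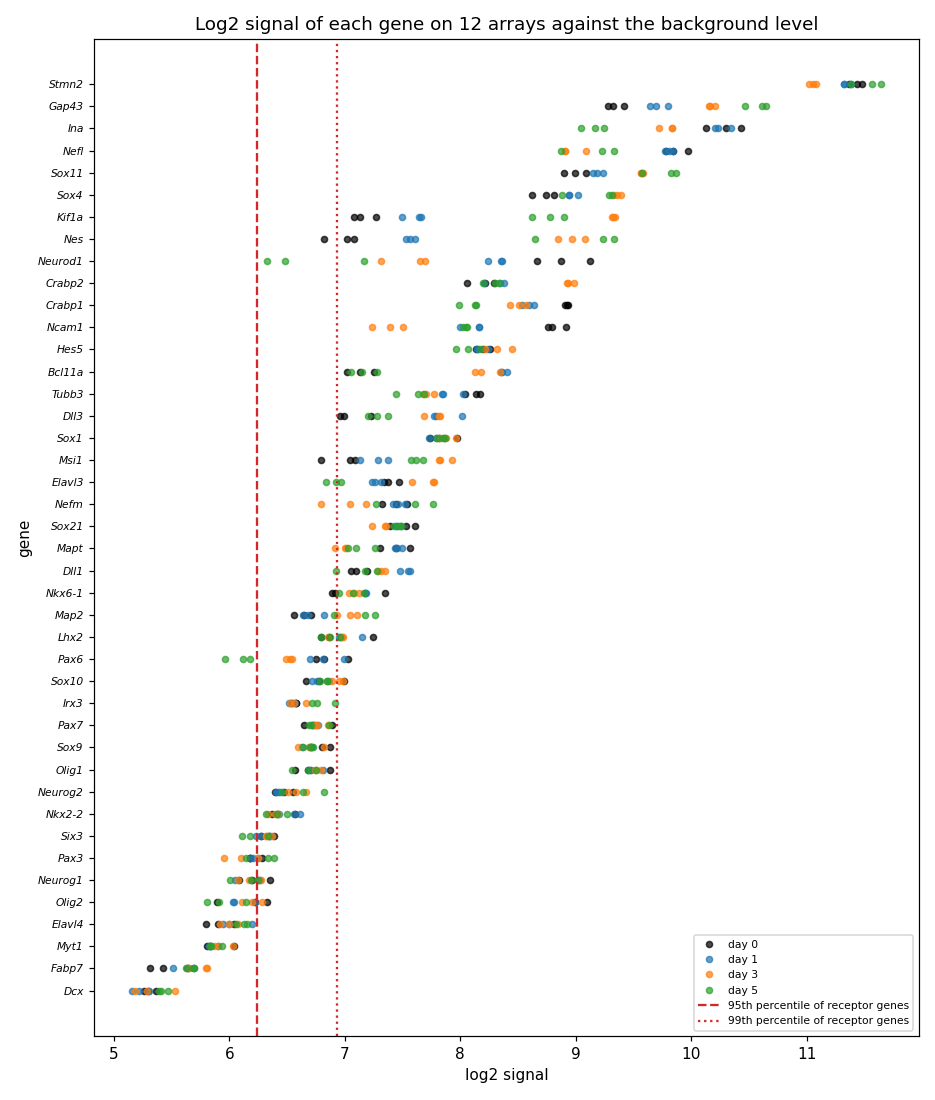
Log2 signal of each of the 42 genes on 12 arrays, coloured by day, with the 95th and 99th percentiles of the receptor genes as dashed and dotted lines. Dcx, Fabp7, Myt1 and Elavl4 lie left of the dashed line on every array, Pax6 crosses it at day 5, and Neurod1 ends just right of it.

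More genes of the wider Notch pathway were higher than lower. Of 36 listed genes that are not among the 42, 35 had a probe set. At day 1, 7 of them were higher and 2 lower (20% and 5.71%, beside 6.45% and 4.48% of all genes). By day 3, 17 were higher and 2 lower (48.6% and 5.71%, beside 13.5% and 13.1%). By day 5, 19 were higher and 1 lower (54.3% and 2.86%, beside 17.4% and 17.6%). The list includes Id1, Id2, Id3 and Id4, inhibitors of bHLH factors that Bmp signaling also induces, and all 4 were higher at day 5. Without them, 15 of 31 were higher and 1 lower. Among the other ligands, Jag2 was higher at days 1, 3 and 5 (0.20, 0.52 and 0.26, adjusted p = 0.049, 2.6e-05 and 0.0037), Jag1 at days 1 and 3 (0.43 and 0.39, adjusted p = 0.0051 and 0.0032), and Dll4 and Dlk1 at no day. The median day 5 change of the 35 measured genes of the list was 0.26, beside -0.02 for all genes. The protease Adam10, which sheds the Notch ectodomain, rose by 1.37 at day 5 (adjusted p = 3.5e-08), the coactivator Maml3 by 1.01 (adjusted p = 2.6e-07) and the receptor Notch3 by 0.93 (adjusted p = 8e-06). Rbpj, the DNA-binding partner of the receptor, was the gene that fell, by 1.28 (adjusted p = 2.3e-06). Hes6, which opposes Hes1, rose early, with 0.67 at day 1 (adjusted p = 2.8e-05) and 0.10 at day 5 (adjusted p = 0.28). The target Hes1 changed by -0.29 at day 1 (adjusted p = 0.024) and by 0.46 at day 5 (adjusted p = 0.00029).

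Other neural progenitor factors, 36 of 39 of which were measured, had 4 higher and 8 lower by day 5 (11.1% and 22.2%, beside 17.4% and 17.6% of all genes, median change -0.03). The membrane protein Prom1 (1.63, adjusted p = 4.8e-09) and the zinc finger factor Zic2 (1.51, adjusted p = 4.8e-07) rose at day 5, and the homeobox factors Hesx1 (-1.48, adjusted p = 2.2e-07) and Gbx2 (-1.15, adjusted p = 2.4e-08), which pattern anterior and hindbrain plate, fell. At day 1 Hesx1 (0.37, adjusted p = 0.042) and Gbx2 (0.30, adjusted p = 0.0081) had been higher. Zic2, Hesx1 and Gbx2 are also used in the epiblast or in ESCs. Other neuronal genes, 50 of 51 of which had a probe set, had 4 higher and 11 lower by day 5 (8% and 22%, beside the same shares of all genes, median -0.05). In either list the day 5 share called higher was under that of all genes, and the share called lower was above it. At day 3 the progenitor list had 11.1% higher and 13.9% lower and the neuronal list 16% and 12%, beside 13.5% and 13.1% of all genes. These differences were not tested. At day 5 the heavy neurofilament chain Nefh fell by 1.26 (adjusted p = 1.9e-07), the helix-loop-helix factor Ebf1 by 1.04 (adjusted p = 1.2e-06) and the ubiquitin hydrolase Uchl1 by 0.83 (adjusted p = 1.2e-06). Dpysl5, a collapsin response mediator, rose by 0.90 (adjusted p = 1e-06). Of 12 glial genes measured, none was higher and 2 were lower at day 5 (16.7%, beside 17.6% of all genes), Aldh1l1 (log2 change -1.35, adjusted p = 7.5e-09) and Cnp (-0.25, adjusted p = 0.019).

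Rest, the repressor of neuronal genes outside the nervous system, averaged 11.57 at day 0, 11.58 at day 1, 11.11 at day 3 and 10.81 at day 5, with a day 5 change of -0.76 (SE 0.06, adjusted p = 6.9e-07). Among Rest and 9 of its corepressors and regulators, 2 were higher and 4 lower at day 5 (20% and 40%, beside 17.4% and 17.6% of all genes), with Rcor1 at 0.64 (adjusted p = 8.7e-06), the phosphatase Ctdsp1 at 0.58 (adjusted p = 0.00018) and Rcor2 at -0.40 (adjusted p = 0.00052). Retinoid enzymes and receptors, of which 16 of 18 were measured, had 5 higher and 4 lower at day 5 (31.2% and 25%, beside those same shares). The reductase Dhrs3 rose by 1.32 (adjusted p = 1.5e-06), the dehydrogenase Rdh10 by 1.13 (adjusted p = 1.1e-07), the degrading enzyme Cyp26a1 by 1.02 (adjusted p = 2e-06, after a day 1 change of -0.92, adjusted p = 4.2e-05) and the synthesizing enzyme Aldh1a2 by 0.72 (adjusted p = 6.8e-05).

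Markers of other cells that such cultures can hold were read on the same arrays. Pluripotency had 8 of 10 markers called down at day 1 (80%, beside 4.48% of all genes). At day 3 it had 9 (90%, beside 13.1%), and at day 5 all 10 (100%, beside 17.6%). The mean log2 signal of the 10 went from between 11.56 and 11.61 at day 0 to between 10.36 and 10.46 at day 5. For the other lists, the day 5 shares of all genes are 17.4% called up and 17.6% called down. Primitive and visceral endoderm had 5 of 8 markers called up (62.5%) and 2 called down (25%). Mesoderm had 1 of 8 called up (12.5%) and 2 called down (25%). Neural crest markers, 8 of 9 of which were measured, had 1 called up, Ets1 (12.5%), and 4 called down (50%). Differences from the shares of all genes were not tested. The part of these cells in the changes of the neural genes was not tested. Day 5 replicate 2 was the lowest of its day for Nes, Sox4, Sox11, Nefm and Nefl and the highest for Neurod1, and its mean correlation with the other day 5 arrays over all genes was 0.9964, beside 0.9967 and 0.9969 for those.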

How the data were processed

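RNA of 12 samples was measured on Affymetrix mouse gene arrays. The deposited table holds log2 expression values of 35557 probe sets, which the authors summarised and normalized with RMA in Affymetrix Expression Console (version not given in the sources used here). RMA makes the array distributions alike, so changes are relative to all probe sets, and array medians were 6.92 to 7.05. The 21789 probe sets with a single symbol in the platform annotation were averaged into 19938 genes; 1621 with several symbols and 12147 with none were left out. Day means were compared by limma 3.58.1 under R 4.3.3 (lmFit, eBayes), with a mean per day, 8 residual and 4.63 prior degrees of freedom, Benjamini-Hochberg adjustment over all genes, a threshold of 0.05 and two-sided tests. The fit was tested on simulated data. Members, lists and rules were chosen with earlier results of these data known. Every member is accounted for; values of every array are printed for Nes, Neurod1 and members called with an absolute change of 0.8 or more against day 0, and from other lists the 4 called genes with the largest day 5 change, with a few singled out after their values were seen (Hes1, Hes6). Alternatives were each array left out, a replicate block, other scalings, probe set rules, variance models and samples, and the methods' one-way analysis of variance. The samples of a day are biological replicates per the methods, and their number, 3 per day, limits precision. Scan dates were not used here.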

Additional observations from a re-analysis of the deposited data

How the results depend on the processing

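The 5 comparisons held 81 called changes of the 42 genes, of which 69 were called under all 21 alternatives run and 12 were lost under at least 1. Of the changes not called, 26 were called under at least 1 alternative. No change of the 42 genes that was called in the main fit or in an alternative differed in sign between them. Sign flips of changes called in neither were not counted. Another scaling moved the median of all genes by at most 0.083. With each array left out in turn, 7 to 11 genes were called at day 1, 19 to 24 at day 3, 17 to 20 at day 5, 14 to 18 between days 1 and 3, 14 to 18 between days 3 and 5, and 22 to 25 by the F test. Over those fits the day 1 change of Nes ran from 0.52 to 0.65 and its change from day 3 to day 5 from -0.024 to 0.32, and the day 1 change of Neurod1 ran from -0.68 to -0.45. Nes at day 1 missed the threshold with every probe set tested on its own (0.60, adjusted p = 0.053). Neurod1 at day 1, not called with all genes, was called without dim genes (-0.57, adjusted p = 0.033), with array weights (-0.59, 0.018) and from the 6 arrays of the 2 days alone (-0.57, 0.018). The methods' one-way analysis of variance with Bonferroni adjustment and a total fold change above 2 called 4 of the 42 genes and 420 of all genes, and with Benjamini-Hochberg 23 and 8555. The cause of these differences was not tested.

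Same-numbered arrays did not deviate together. Over 18 pairs of them the correlation of deviations from the day means ran from -0.17 to 0.07, and 2 of 12 arrays correlated best with their own number. Such correlations cannot tell whether same-numbered cultures were handled in parallel. With the replicate number as a block, 9 genes were called at day 1, 22 at day 3, 17 at day 5, 17 between days 1 and 3, 16 between days 3 and 5 and 23 by the F test. Array signal over background limits Dcx, Fabp7, Myt1 and Elavl4, whose changes cannot be read from these arrays. It also limits Pax6 at day 5, whose fall is a lower bound that depends on the level chosen. Falls of Six3, Olig2, Pax3 and Neurog1, with arrays on either side of the level, may be understated. The day 5 arrays of Neurod1 at 6.33 and 6.48 lay just above the level, 6.24, and under the 99th percentile, 6.93. The fall of Neurod1 may therefore be understated too.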
